A study of Mus musculus with 12 samples.

Results

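The genes described here are the ligands and receptors of axon guidance in the retina of control and *Otx2* CKO mice at postnatal day 1 (P1) and day 12 (P12). They were chosen by symbol, as probe sets annotated with 1 gene that is a class 3 to 7 semaphorin, a plexin, a neuropilin, an ephrin, an Eph receptor, a Slit, a Robo, a netrin or netrin-G, *Dcc* or an Unc5 receptor. This gave 71 genes with 158 probe sets, of 18193 genes with 1 symbol and 45101 probe sets on the array, and 37 of them encode ligands, 33 receptors and 1 an antisense transcript (*Plxna4os1*). Each gene is given by its brightest probe set. The control retina was otx2 flox/flox; *Crx*-Cre- and the *Otx2* CKO retina was otx2 flox/flox; *Crx*-Cre+, so that the controls carried the floxed gene without Cre, and Cre was driven by the promoter of *Crx*, a gene of developing photoreceptors. There were 3 Affymetrix arrays (Mouse Genome 430 2.0) in each of the 4 groups, which are P1 control, P1 *Otx2* CKO, P12 control and P12 *Otx2* CKO, all of whole-retina RNA. The labels number the arrays of a group as experiments, which the study describes as independent, and nothing says whether retinas were pooled for an array or came from separate animals, so the p values measure the spread between these arrays, which may be technical. For some arrays the free-text description gives the opposite genotype, so groups were taken from title, source name and genotype field, which match each other.

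Guidance molecules are cues on cell surfaces or in the extracellular matrix, read by receptors on growing axons and dendrites. Class 3 semaphorins are secreted and act through neuropilins, which bind the ligand, and plexins, which carry the signal into the cell, whereas the transmembrane and anchored semaphorins of the other classes bind plexins directly. Ephrin-A ligands are tethered by a lipid anchor and are bound mainly by EphA receptors, and ephrin-B ligands span the membrane and are bound mainly by EphB receptors. Slits are secreted ligands of Robo receptors, and netrins bind *Dcc* and Unc5 receptors, while the anchored netrin-G proteins bind other adhesion molecules at synapses. In the retina these systems steer ganglion cell axons to the optic nerve head and the brain, map them in their targets, and sort the dendrites of amacrine and ganglion cells in the inner plexiform layer.

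*Otx2* itself was measured first, as a check of the labels. Its normalized signal was 938, 592 and 588 on the P12 control arrays and 96.6, 114 and 67.5 on the P12 *Otx2* CKO arrays. At P1 it was 902, 841 and 639 in control and 377, 336 and 427 in *Otx2* CKO. The *Otx2* CKO arrays lay below the control arrays at both ages, with a log2 difference of −2.72 at P12 (limma adjusted p = 5.87e-06) and of −1.02 at P1, where it did not pass (adjusted p = 0.219). As deposited, the arrays did not share a brightness, their medians being 5.1 to 7.9 for P1 arrays and 24.3 to 56 for P12 arrays, so signals were quantile-normalized over the 12 arrays. Log2 signals of arrays of 1 group had correlations between 0.957 and 0.98 for P1 and between 0.89 and 0.968 for P12. Each log2 difference below is of signal + 16, which understates the change of dim genes, and a fold is a ratio of mean normalized signals.

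Of the 71 guidance genes, 53 were bright enough to be tested in at least 1 comparison, which asked for a mean normalized signal of at least 50 in a compared group. The 18 others stayed under that limit in all 4 groups, 12 of them under 25. These were the class 3 semaphorins *Sema3b*, *Sema3c*, *Sema3d* and *Sema3g*, the netrins *Ntn1*, *Ntn3* and *Ntn5*, *Efna1*, *Efna4*, *Epha1*, *Epha6*, *Ephb4*, *Plxnb3*, *Plxna4os1*, *Robo3*, *Robo4*, *Sema6b* and *Slit3*. Netrin-1, the classical ligand of *Dcc* at the optic nerve head, was among them, with normalized signals of 14.4, 2.03 and 7.22 in P12 control and 10.6, 10.7 and 0.992 in P12 *Otx2* CKO, below what this probe set could be tested at.

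In the *Otx2* CKO retina at P12, guidance genes were higher more often than lower. Of 48 tested, 13 rose and 4 fell (limma, adjusted p under 0.05), where 7.93% of all 16989 probe sets tested rose and 8.46% fell. The largest rises were those of *Nrp2*, *Sema5a*, *Ntn4*, *Nrp1*, *Slit1* and *Efnb2*, from 2.89- to 4.26-fold in mean signal, and the falls were those of *Plxna2*, *Sema7a*, *Ntng2* and *Ntng1*. The median log2 difference over the 48 genes was 0.54, against 0.07 over all probe sets tested, and 36 of the 48 were above 0, as were 55.5% of all probe sets. Ligands and receptors were both among them, with 7 of 25 ligands rising and 3 falling, and 6 of 23 receptors rising and 1 falling. At an unadjusted p under 0.05, 21 guidance genes were higher and 7 lower, where 15.4% of all probe sets were higher and 13.3% lower. In whole-retina RNA, fewer cells of a type and less RNA per cell cannot be told apart.

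**Figure D1:**
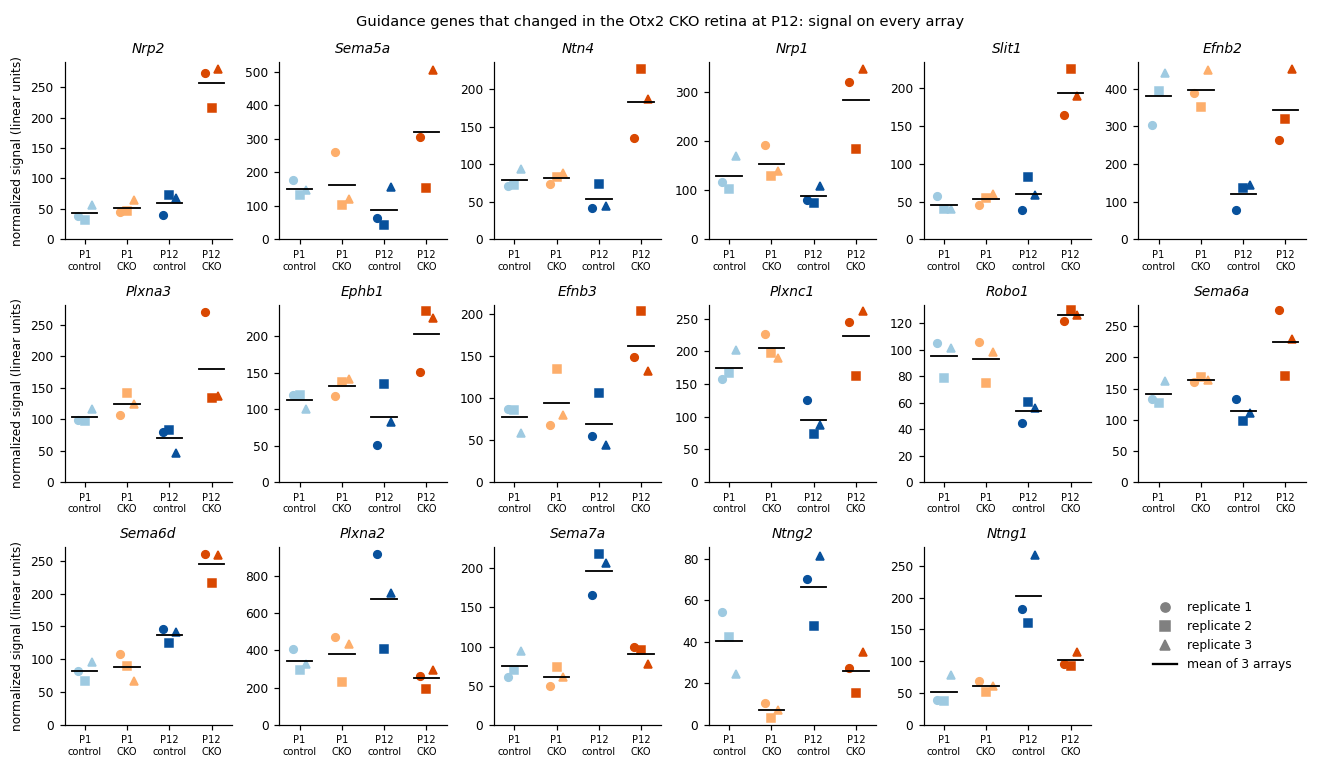
Normalized signal (linear units, y axis from 0) of the 17 guidance genes that rose or fell at P12, on each of the 12 arrays. Symbols mark the replicate number and the line is the mean of 3 arrays, and the 3 P12 Otx2 CKO arrays lie apart from the 3 P12 control arrays for every gene but Sema5a. The genes were called on these same P12 arrays, so the separation is no separate support. The share of all probe sets whose arrays lie apart was not counted.

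The neuropilins, the ligand-binding receptors of class 3 semaphorins that also bind vascular endothelial growth factors, showed the largest rise. *Nrp2* had normalized signals of 40.6, 72.5 and 67.2 in the 3 P12 control arrays and 273, 216 and 279 in the 3 P12 *Otx2* CKO arrays, against 38.9, 32.3 and 56.6 in P1 control and 44.6, 46.5 and 64.5 in P1 *Otx2* CKO. The P12 *Otx2* CKO arrays stood alone, at more than 2 times any other array, and the other 3 groups overlapped. The rise at P12 was 4.26-fold, with a log2 difference of 1.86 (SE 0.23, limma adjusted p = 0.000136), and stayed between 1.13 and 2.23 over all alternatives tried (adjusted p 1.27e-05 to 0.00545). *Nrp1* had signals of 79.8, 74.4 and 109 in P12 control and 320.5, 185 and 348 in P12 *Otx2* CKO, and 116, 102 and 169.7 in P1 control and 192, 129 and 139.9 in P1 *Otx2* CKO. All 3 P12 *Otx2* CKO arrays were above all 3 P12 control arrays, a 3.25-fold rise (log2 1.50, SE 0.27, adjusted p = 0.00203). Every other probe set of the 2 genes that was tested, 3 of *Nrp1* and 2 of *Nrp2*, also rose. Each had a mean under 50 in P12 control and entered the test only through P12 *Otx2* CKO, which favours a rise. They are thus no separate support.

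Plexins, the signalling partners of the neuropilins and the receptors of the other semaphorins, split. *Plxna3*, which pairs with neuropilins and also binds *Sema5a*, rose from 80.2, 83.4 and 46.8 in P12 control to 270.5, 133 and 136 in P12 *Otx2* CKO, with replicate 1 far above the others, by 2.57-fold (log2 1.15, adjusted p = 0.0117, and 0.0543 without control replicate 3 of P12). *Plxnc1*, the receptor of *Sema7a*, rose from 126, 73.6 and 87.6 to 244, 162 and 262, by 2.33-fold (log2 1.10, adjusted p = 0.00523), with no overlap of the arrays. *Plxna2*, a receptor of class 3 and class 6 semaphorins with a part in the lamination of starburst amacrine dendrites, went the other way. It had 918, 407 and 710.3 in P12 control and 265, 190.3 and 297 in P12 *Otx2* CKO, a 2.7-fold fall (log2 −1.33, SE 0.32, adjusted p = 0.0137) in which the lowest control array was above the highest *Otx2* CKO array. The 3 other probe sets of *Plxna2* fell too, and without control replicate 3 of P12 the adjusted p of its brightest was 0.053. *Plxna1*, *Plxna4*, *Plxnb1* and *Plxnb2* were tested and did not pass, with log2 differences of 0.24, −0.07, −0.20 and 0.46.

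*Otx2* is a homeodomain transcription factor that, like its relative *Crx*, binds DNA with a TAATC core, so the sequence before the annotated start was read for the members that RefSeq's promoter table holds (build GRCm38.p6). It held 60 of the 71 genes in 76 windows of 250 bases. TAATC, or GATTA for a match on the other strand (a match on each strand can overlap), stood in the window of 5 of the 60 genes, *Nrp2*, *Epha5*, *Robo3*, *Robo4* and *Sema3c* (8.33%), and in 22.4% of the 27025 genes of the table. Guidance gene windows had a median GC content of 64.4% against 52.0% over all genes. Of the 14 genes that rose or fell at P12 and have a window, 1 held the letters, *Nrp2*, the gene of the largest rise. The windows of *Nrp2* and of *Plxna2*, the gene of the largest fall, are shown as the 2 ends of the range, 5′ to 3′ in the direction of the gene, from chr1:62703067-62703316 (+ strand) and chr1:194619579-194619828 (+ strand), with TAATC in capitals.
Nrp2: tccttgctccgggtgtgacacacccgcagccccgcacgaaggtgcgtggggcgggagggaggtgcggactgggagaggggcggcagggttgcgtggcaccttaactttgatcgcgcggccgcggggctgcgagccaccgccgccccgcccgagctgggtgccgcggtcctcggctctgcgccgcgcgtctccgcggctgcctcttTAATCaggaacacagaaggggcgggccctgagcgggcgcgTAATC
Plxna2: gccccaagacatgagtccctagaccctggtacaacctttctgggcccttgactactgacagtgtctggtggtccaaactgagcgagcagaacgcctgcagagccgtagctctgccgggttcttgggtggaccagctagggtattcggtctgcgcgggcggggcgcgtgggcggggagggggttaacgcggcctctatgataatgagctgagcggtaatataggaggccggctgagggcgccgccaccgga
In *Nrp2* the first match begins at position −45 from the start and the other ends the window, and in *Plxna2* there was none. A match of letters is not a bound site, and no match says only that these letters are not in this window.

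Of the 13 class 4 to 7 semaphorins, 12 were tested, 3 rose and 1 fell. *Sema5a*, which with *Sema5b* keeps neurites of inner retinal neurons in the inner plexiform layer, had 62.1, 41.6 and 155 in P12 control and 306, 152 and 506 in P12 *Otx2* CKO. It rose 3.72-fold (log2 1.73, SE 0.47, adjusted p = 0.0239), although control replicate 3 was above *Otx2* CKO replicate 2, and 4 of the 12 fits without 1 array took the adjusted p over 0.05, to at most 0.106. *Sema5b* was lower without passing, with 71.2, 97.1 and 57.7 in control and 51.5, 66 and 55.1 in *Otx2* CKO (log2 −0.29, adjusted p = 0.364). *Sema6a*, a transmembrane semaphorin that binds *Plxna2* and *Plxna4* in the inner retina, rose from 133, 97.6 and 111 to 276, 170.2 and 230.3 (log2 0.88, adjusted p = 0.00951). *Sema6d*, a ligand of *Plxna1*, rose from 146, 125 and 141 to 261, 216 and 259 (log2 0.77, adjusted p = 0.0187), and for both class 6 genes every *Otx2* CKO array was above every control array. *Sema6d* did not pass without *Otx2* CKO replicate 1 or replicate 3 of P12 (highest adjusted p = 0.0671), nor as the mean of its probe sets (adjusted p = 0.191). *Sema7a*, a lipid-anchored semaphorin bound by *Plxnc1* and by integrins, fell from 166, 218 and 206 to 100, 95.4 and 77.2, by 2.17-fold (log2 −0.99, SE 0.20, adjusted p = 0.00492). *Sema7a* was thus lower, and its receptor gene *Plxnc1* higher, on the same 3 arrays.

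The 8 other class 4 to 6 semaphorins tested did not pass at P12, with log2 differences from −0.29 (*Sema5b*) to 0.78 (*Sema4f*). *Sema4d*, the ligand of *Plxnb1* and the semaphorin with the brightest probe set, had 155, 212 and 169.7 in control and 171, 246 and 222 in *Otx2* CKO, and the groups overlapped (adjusted p = 0.553). Of 7 class 3 semaphorins, 2 could be tested at P12 and neither passed in its brightest probe set (limma, 0 higher and 1 lower at an unadjusted p under 0.05). *Sema3f*, the secreted ligand of *Nrp2*, had 327, 156 and 165 in control and 139, 84.7 and 79 in *Otx2* CKO. Every *Otx2* CKO array was below every control array (log2 −0.95, SE 0.31, adjusted p = 0.0551), the opposite side of 0 from the rise of *Nrp2*. The 2 other tested probe sets of *Sema3f* fell, by log2 differences of −1.38 and −1.44 (adjusted p = 0.00214 and 0.000204). *Sema3a*, the ligand of *Nrp1*, had means under 50 in both P12 groups, with 46.5, 15.8 and 29.1 in control and 61.7, 20.6 and 52.9 in *Otx2* CKO.

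Of the 3 ephrin-B genes, 2 rose. *Efnb2*, the ligand of *Ephb1* that sorts ipsilateral from crossing axons at the optic chiasm, had 77.4, 137 and 143 in P12 control and 263, 319 and 453 in P12 *Otx2* CKO. The lowest *Otx2* CKO array was above the highest control array, and the rise was 2.89-fold (log2 1.42, SE 0.26, adjusted p = 0.00216). *Efnb3* rose from 55.1, 107 and 44.4 to 149, 203 and 132 (log2 1.12, adjusted p = 0.024), a call that 3 of 12 fits without 1 array lost (highest adjusted p = 0.1). *Efnb1* did not pass, with 116, 114 and 85.1 in control and 81.4, 116 and 86.3 in *Otx2* CKO. Their receptor gene *Ephb1* rose from 50.5, 134 and 82.3 to 150.3, 234 and 225 (log2 1.12, adjusted p = 0.0137), with no overlap, and without *Otx2* CKO replicate 3 of P12 its adjusted p was 0.057. *Efnb2*, *Efnb3* and *Ephb1*, a pair of ligands and a receptor of 1 system, were thus higher on the same arrays.

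The ephrin-A system, which maps ganglion cell axons along the nasal to temporal axis of the retina, gave no call at P12. None of 3 tested ephrin-A ligands and none of 6 tested EphA receptors passed (limma), and at an unadjusted p under 0.05 there were 2 ligands higher, 1 receptor higher and 1 lower. *Efna2*, *Efna3* and *Efna5* had log2 differences of 0.63, 0.63 and 0.54. *Efna5* had 128, 78.3 and 89.4 in control and 231, 121 and 114 in *Otx2* CKO, where control replicate 1 was above 2 of the *Otx2* CKO arrays. *Epha5*, a receptor of it, had 121, 14.7 and 65.3 in control and 214, 54.3 and 116 in *Otx2* CKO, with replicate 2 lowest in each group (log2 0.88, SE 0.56, adjusted p = 0.341). *Epha10*, a receptor without an active kinase, had the lowest value of the EphA group, with 33.1, 64.1 and 61.7 in control and 32.9, 2.96 and 24.3 in *Otx2* CKO (log2 −1.01, adjusted p = 0.055).

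Of Slits and Robos, *Slit1* and *Robo1* rose. *Slit1*, a secreted repellent, had 38.5, 83 and 59 in P12 control and 165, 226 and 190.3 in P12 *Otx2* CKO, and 57.4, 39.6 and 40.5 and 44.9, 54.8 and 60.3 in the P1 groups. The rise at P12 was 3.22-fold (log2 1.49, SE 0.23, adjusted p = 0.000787), and the lowest *Otx2* CKO array was at nearly 2 times the highest control array. *Robo1*, a receptor of Slits, had 44.6, 60.4 and 56.1 in control and 122, 129.9 and 126 in *Otx2* CKO, a tight rise of 2.35-fold (log2 1.03, SE 0.18, adjusted p = 0.00194). *Slit2*, the Slit with the brightest probe set, did not pass, with 604, 282 and 515 in control and 288, 182 and 278 in *Otx2* CKO (log2 −0.82, adjusted p = 0.0609). Control replicate 2 was below 1 *Otx2* CKO array, so the groups overlapped by that array.

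Of 6 netrin and netrin-G genes 3 could be tested, of which 1 rose and 2 fell. *Ntn4*, a secreted netrin related to laminins and found in basement membranes, rose from 42.1, 73.5 and 44.4 in control to 135, 227 and 186 in *Otx2* CKO, by 3.43-fold (log2 1.52, SE 0.23, adjusted p = 0.000571). *Ntng1* fell from 182, 159 and 267 to 95.7, 92.8 and 115 (log2 −0.88, SE 0.25, adjusted p = 0.033), and *Ntng2* from 70.2, 47.4 and 81.7 to 27.3, 15.2 and 35.3 (log2 −0.98, SE 0.27, adjusted p = 0.0259). In both netrin-G genes every *Otx2* CKO array was below every control array, and 5 of 12 fits without 1 array lost that of *Ntng1* (highest adjusted p = 0.129) and 3 that of *Ntng2* (highest 0.0976). Of the netrin receptors, *Dcc* and 4 Unc5 genes were tested and none passed, with 1 higher and 0 lower at an unadjusted p under 0.05, and all 5 log2 differences were above 0. *Dcc* had 78.4, 16.7 and 91.4 in control and 168, 46.4 and 112 in *Otx2* CKO, again with replicate 2 lowest in each group (log2 0.71, SE 0.49, adjusted p = 0.384). *Unc5b* had 35.9, 61.9 and 36 in control and 77.7, 97.8 and 77.5 in *Otx2* CKO, without overlap (log2 0.75, adjusted p = 0.0842).

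**Figure D2:**
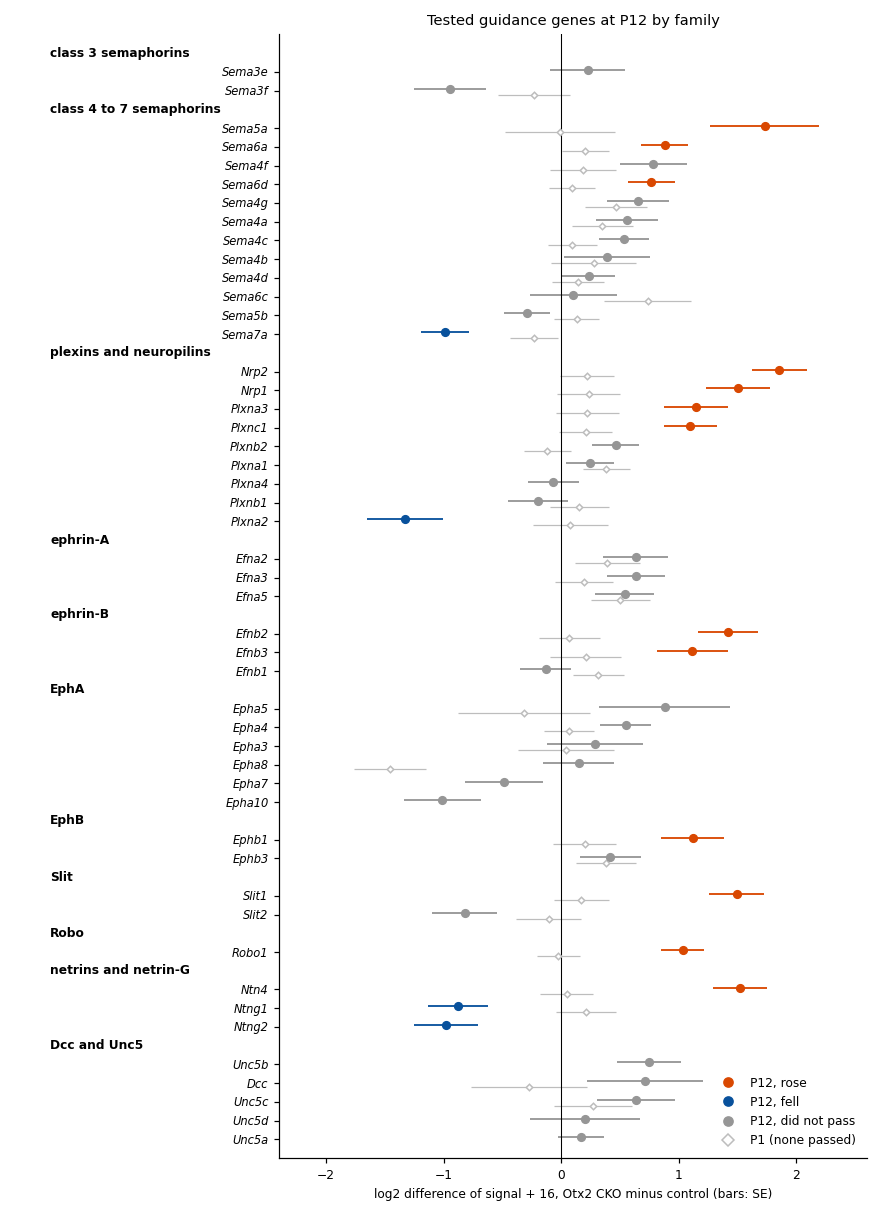
Log2 difference (signal + 16) of Otx2 CKO minus control for the 48 guidance genes tested at P12, by family, with bars of 1 SE. Filled points are P12 values, coloured where the gene rose (13) or fell (4), and open points are the P1 values of the same genes, of which none passed.

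The calls at P12 depended on array scaling and on replicate pairing. On the signals as deposited, 24 guidance genes were higher and 0 lower of 55 tested, where 14.1% of all probe sets were higher and 4.54% lower and the median of all tested shifted by 0.39 in log2 (0.07 after normalization), and *Plxna2*, *Sema7a*, *Ntng2* and *Ntng1* did not pass although they stayed below 0. With median scaling 11 were higher and 1, *Plxna2*, lower, where 4.59% of all probe sets were higher and 5.59% lower. Same-numbered control and *Otx2* CKO arrays deviated together, and with the replicate number as a block in the model of 12 arrays 16 rose and 7 fell, where 13.0% of all probe sets rose and 11.3% fell. That fit added *Sema4c*, *Sema4f* and *Sema4g* to the rises and *Sema3f*, *Slit2* and *Epha10* to the falls (adjusted p 0.0356, 0.011 and 0.0449). With the block set within each age, a fit chosen after seeing the data, 26 rose and 7 fell, against 21.4% and 16.3% of all probe sets. It kept all 17 calls and the 6 of the fit before, and gave rises of *Efna2*, *Efna3*, *Efna5*, *Epha4*, *Epha5*, *Ephb3*, *Plxnb2*, *Sema4a*, *Unc5b* and *Unc5c* besides. With each age fitted alone, 6 rose and 1 fell, against 2.40% and 4.61% of all probe sets.

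**Figure D3:**
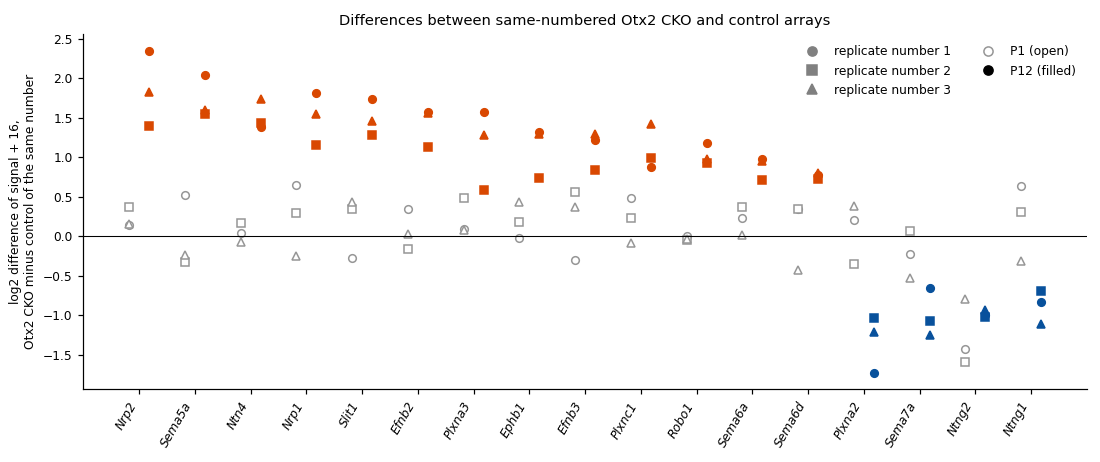
Log2 difference (signal + 16) between the Otx2 CKO and the control array of the same replicate number, at P1 (open) and P12 (filled), for the 17 genes called at P12. At P12 the 13 genes that rose were above 0 in 3 of 3 pairs (0.585 to 2.35) and the 4 that fell were below 0 in 3 of 3 pairs (−1.73 to −0.65), and at P1 most genes lie on both sides of 0. The genes were called on these same P12 arrays, so the pairs are no separate support.

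**Figure D4:**
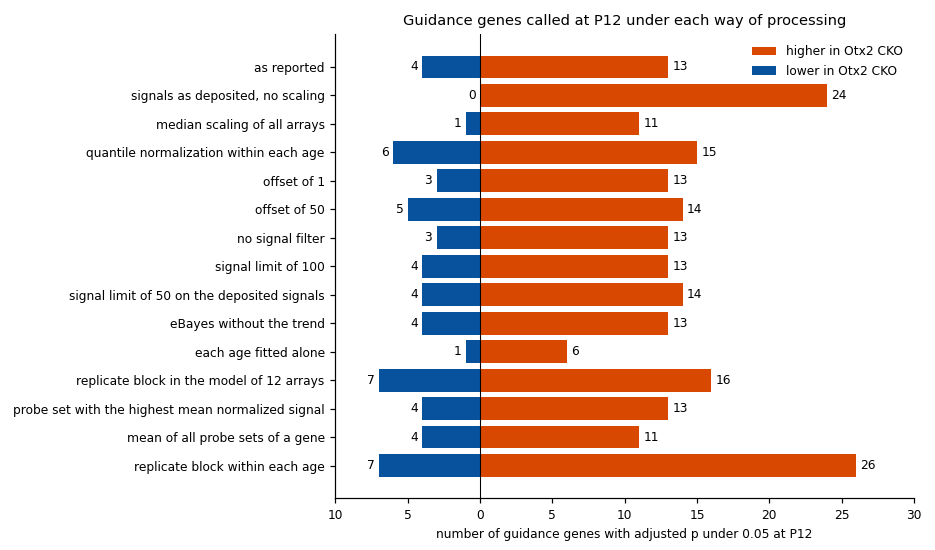
Number of guidance genes with an adjusted p under 0.05 at P12 (x axis, lower genes to the left of 0 and higher genes to the right) under each way of processing. Higher genes outnumber lower genes in each of them, from 6 against 1 with each age fitted alone to 26 against 7 with the replicate block within each age. Of all probe sets, 2.40% were higher and 4.61% lower with each age fitted alone, and 21.4% and 16.3% with that block.

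Markers of retinal cell types moved on the same arrays. At P12 all 8 tested rod and cone markers fell, with a summed signal of 22840 to 24900 in control and 624 to 1286 in *Otx2* CKO, where 3 of the 8 had means under 50 and none had in control, and all 4 tested bipolar markers fell (3245 to 3336 against 201 to 312). Microglia markers rose in 7 of 7 tested (377 to 671 against 1225 to 2345), amacrine markers in 3 of 7 (3316 to 3653 against 5298 to 5933), Muller glia markers in 2 of 8 (5888 to 7049 against 9924 to 11220) and astrocyte markers in 2 of 3 (168 to 189 against 453 to 473), and none of these lists had a member that fell. None of 8 ganglion cell markers passed (3156 to 3666 against 3654 to 4899, with 2 higher and 1 lower at an unadjusted p under 0.05), and of 5 blood vessel markers 1 rose. Of 3 horizontal cell markers 1 rose and 1 fell, 1 of 4 pigment epithelium and 1 of 3 progenitor markers rose, the 1 tested connective tissue marker did not pass, and no lens marker was bright enough to test. The part of these cell types in the guidance gene differences was not tested.

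Other genes of axon guidance were read beside the guidance genes chosen by symbol. These 61 were adhesion molecules, adaptors, cytoskeletal effectors and further ligands and receptors. At P12, 50 of them were tested, 15 rose and 3 fell, where 7.93% of all probe sets rose and 8.46% fell, and the median log2 difference was 0.59 against 0.07 over all probe sets. The largest rises were those of *Cntn2*, an axonal adhesion molecule (log2 1.96, SE 0.38), *Gap43*, a growth cone protein (log2 1.45, SE 0.24), *Cdon*, a co-receptor of hedgehog proteins that also binds netrins (log2 1.41), *Dpysl5*, a collapsin response mediator (log2 1.27), and *Vav2*, an exchange factor downstream of Eph receptors (log2 1.16). Their adjusted p values were 0.00332, 0.00133, 0.00139, 0.0117 and 0.0116. Others of the 15, named after their values were seen, were *Neo1*, a *Dcc* relative, and *Srgap2* and *Srgap3*, which act downstream of Robo (log2 0.83, 0.93 and 1.03). The 3 falls were those of *Rtn4rl1*, a Nogo receptor relative (log2 −1.01), *Ablim1*, an actin-binding protein (log2 −0.99), and *Nfasc*, an axonal adhesion molecule (log2 −0.85), with adjusted p values of 0.00357, 0.00197 and 0.0257. At P1, 46 partner genes were tested and none passed (limma, 4 higher and 0 lower at an unadjusted p under 0.05, against 1.23% and 1.33% of all probe sets).

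At P1 no guidance gene passed the test between *Otx2* CKO and control. Of 45 tested, limma called 0 higher and 0 lower, where 0.208% of all 15885 probe sets tested were called, and at an unadjusted p under 0.05 there were 0 higher and 1 lower, against 1.23% and 1.33% of all. The one that was lower was *Epha8*, a receptor of ephrin-A ligands, with 125, 85.8 and 63.1 in P1 control and 20.9, 11.6 and 38 in P1 *Otx2* CKO. All 3 *Otx2* CKO arrays were below all 3 control arrays (log2 −1.46, SE 0.30, adjusted p = 0.143), and with the replicate block within each age its adjusted p was 0.0191. At P12 the 2 groups of *Epha8* overlapped, at 44.4, 86 and 53 and 59.1, 89 and 57. The remaining 44 genes had adjusted p values of 0.999. Over the 45 genes the median log2 difference was 0.18, against 0.01 over all probe sets, 34 of 45 were above 0, and the SE of a gene ranged from 0.182 to 0.561. *Ntng2* had means under 50 at P1 and was not tested, with 54.6, 42.3 and 24.4 in control and 10.3, 3.34 and 7.36 in *Otx2* CKO, where all *Otx2* CKO arrays were lower, as they were at P12.

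The effect of the *Otx2* CKO on 4 guidance genes differed between P12 and P1. The difference of the 2 effects was tested in 53 guidance genes, and it was above 0 and passed in *Nrp2*, *Ntn4*, *Slit1* and *Robo1*, where 1.28% of all 18652 probe sets passed above 0 and 3.11% below 0. By its brightest probe set no guidance gene passed below 0 (limma), with 3 at an unadjusted p under 0.05, against 8.18% of all. Above 0, 13 of the 53 guidance genes had an unadjusted p under 0.05, against 1435 of all 18652 probe sets. The 2 other probe sets of *Sema3f* passed below 0, at −1.39 and −1.09 (adjusted p = 0.0433 and 0.0386), as did the mean of its probe sets. For *Nrp2* the log2 effect was 0.22 at P1 and 1.86 at P12, a difference of 1.64 (SE 0.33, adjusted p = 0.0126). *Ntn4* had effects of 0.05 and 1.52, a difference of 1.47 (SE 0.32, adjusted p = 0.0208). *Slit1* had 0.17 and 1.49 (adjusted p of the difference 0.0408) and *Robo1* had −0.03 and 1.03 (adjusted p = 0.0389). *Nrp2* passed with each of the 12 arrays left out in turn, whereas 5 of 12 such fits lost *Ntn4* and 10 each lost *Slit1* and *Robo1*. For the other 13 genes called at P12, the fit that gave these 4 genes showed no difference from P1 by the brightest probe sets. The values were 1.35 for *Efnb2* (adjusted p = 0.0587), 1.27 for *Nrp1* (0.0926) and 1.74 for *Sema5a* (0.201). Of other probe sets, 2 of *Plxnc1* passed (adjusted p = 0.0285 and 0.0453). Under alternatives without a block, *Efnb2* passed above 0 with normalization within each age and with a signal limit of 100. On the signals as deposited *Efnb2*, *Nrp1* and *Ephb1* passed above 0. Some fits without 1 array also added *Efnb2*, *Nrp1* or *Ephb1* above 0 or *Plxna2* below 0. With the replicate block in the model of 12 arrays, 7 genes passed above 0, *Efnb2*, *Nrp1* and *Epha8* being added (adjusted p 0.00632, 0.019 and 0.0447), and 2, *Plxna2* and *Ntng1*, below 0 (adjusted p 0.00604 and 0.031), where 3.20% of all probe sets passed above 0 and 4.56% below. With the block within each age, a fit chosen after seeing the data, 13 passed above 0 and 4 below, against 9.92% and 8.34% of all. The 13 added *Efnb3*, *Ephb1*, *Plxna3*, *Plxnc1*, *Sema5a* and *Sema6a* (adjusted p 0.0305, 0.0181, 0.0327, 0.0199, 0.000872 and 0.0378), and the 4 added *Sema7a* and *Slit2* (0.0462 and 0.0387).

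Between P1 and P12 in the control retina, of 50 guidance genes tested, 7 were higher and 9 lower at P12 relative to all genes, where 19.5% of all 17646 probe sets rose and 19.6% fell, and neither share of the guidance genes was above that of all probe sets. *Ntng1* rose most, from 38.7, 38 and 79 at P1 to 182, 159 and 267 at P12 (log2 1.71, SE 0.25, adjusted p = 0.000207), and the ages did not overlap. *Sema7a* rose from 61.1, 70.4 and 94 to 166, 218 and 206 (log2 1.23, adjusted p = 0.000461). *Epha7*, *Plxna2*, *Unc5a*, *Sema6d* and *Plxna4* rose by log2 differences of 1.19, 0.89, 0.88, 0.66 and 0.63. These higher genes hold 3 ligands and 4 receptors.

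The 9 genes that fell with age were 6 receptors and 3 transmembrane ligands. *Epha5* fell from 178, 199.6 and 354 at P1 to 121, 14.7 and 65.3 at P12 (log2 −1.83, SE 0.56, adjusted p = 0.0209), and *Epha3*, another EphA receptor, from 165, 176 and 225 to 87.3, 17.4 and 58.2 (log2 −1.68, adjusted p = 0.00596). *Robo2*, the main Slit receptor of ganglion cell axons, fell from 102, 113 and 104 to 30.6, 4.08 and 29.4 (log2 −1.81, SE 0.37, adjusted p = 0.00215). In all 3 receptor genes every P12 array was below every P1 array. *Efnb2* fell from 305, 394 and 442 to 77.4, 137 and 143 (log2 −1.57, adjusted p = 0.000437), and *Sema4d* and *Sema4c* had log2 differences of −1.30 and −1.23. For *Plxnc1*, *Ephb3* and *Robo1* they were −0.80, −0.73 and −0.67. These directions are relative to all genes: on the signals as deposited, where the median of all probe sets was 1.45 higher at P12, 42 guidance genes were higher and 0 lower of 49 tested, where 82.7% of all probe sets were higher, and with median scaling 4 were higher and 10 lower, against 12.2% and 20.9% of all. With the replicate block 8 rose and 12 fell, against 23.7% and 26.4% of all, with *Slit2* added to the rises and *Sema3a*, *Dcc* and *Plxnd1* to the falls (adjusted p 0.0113, 0.0196, 0.035 and 0.025). That block joins same-numbered arrays of P1 and P12, which did not deviate together in control (correlations −0.027, −0.047 and −0.026). The block is fitted over all 12 arrays, so the spread behind the added calls also draws on the *Otx2* CKO arrays. In *Otx2* CKO the correlations between same-numbered P1 and P12 arrays were 0.631, 0.621 and 0.001. Between the control arrays compared here, the pairing across ages was not seen.

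The age change in control and the *Otx2* CKO effect at P12 share the P12 control arrays, so their values are set side by side and not related to each other. Mean normalized signals of *Efnb2* went from 380.2 ± 69.5 at P1 to 119 ± 36.4 at P12 in control (SD, n = 3), and from 397 ± 50.3 to 345 ± 97.6 in *Otx2* CKO. With signals normalized over the 12 arrays, the P12 *Otx2* CKO level of *Efnb2* was thus near that of both P1 groups. That match depends on the scaling, since with normalization within each age *Efnb2* in control was higher at P12 (log2 0.34). *Robo1* went from 95 ± 14.4 to 53.7 ± 8.16 in control and from 93.2 ± 16.1 to 126 ± 3.98 in *Otx2* CKO. *Plxnc1* went from 175 ± 23.3 to 95.6 ± 26.9 in control and from 204 ± 19.4 to 223 ± 53.2 in *Otx2* CKO. Among the genes higher at P12 in control, *Ntng1* reached 203 ± 57 in control and 101 ± 12 in *Otx2* CKO, from 51.9 ± 23.5 and 60.2 ± 9.01 at P1. *Sema7a* reached 197 ± 27.3 in control and 90.9 ± 12.1 in *Otx2* CKO, from 75.2 ± 17 and 61.5 ± 12.2. *Sema6d* was higher at P12 in control, at 137 ± 11.2 against 81.8 ± 14.4 at P1, and higher again in P12 *Otx2* CKO, at 245 ± 25.5. *Nrp2*, *Slit1* and *Ntn4* did not pass between the ages in control (adjusted p 0.224, 0.383 and 0.12), and their P12 *Otx2* CKO means were 256 ± 34.6, 194 ± 30.4 and 183 ± 45.9, above every mean of the other 3 groups.

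**Figure D5:**
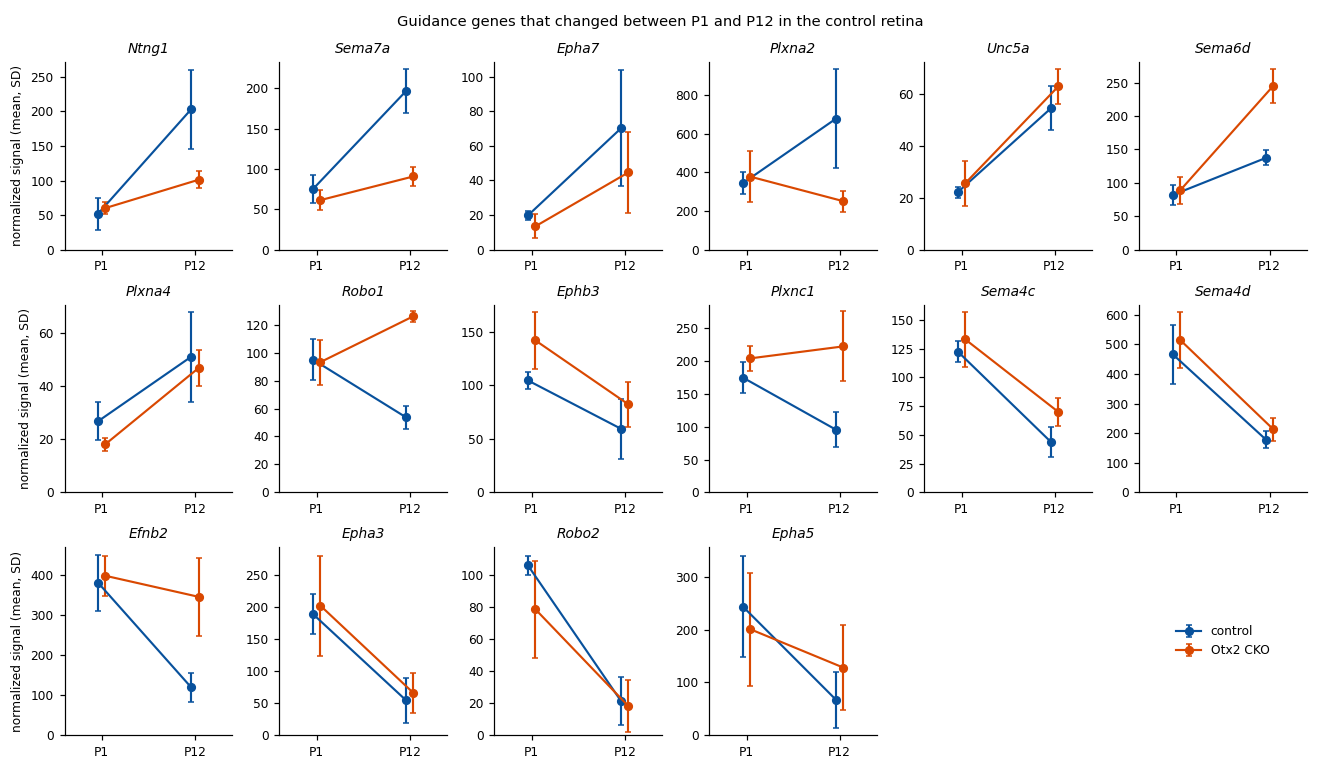
Mean normalized signal (linear units, bars of 1 SD, n = 3) at P1 and P12 in control and Otx2 CKO retina for the 16 guidance genes that differed between the ages in control. The 2 genotypes lie close together at P1 and apart at P12 for Ntng1, Sema7a, Plxna2, Sema6d, Robo1, Plxnc1 and Efnb2. These genes were called on the same P12 arrays. In the fit that gave those calls, the difference of the 2 effects passed for Robo1 (limma adjusted p = 0.0389). It did not pass for the others named (adjusted p 0.0587 to 0.253).

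Where a gene called at P12 had other probe sets bright enough to test, these gave the same direction. There were 35 other probe sets of the 17 genes, 18 of which were tested, and all 18 were on the same side of 0 and 16 passed. The 2 that did not pass were both of *Ntng1*. Most of the 18 reached the signal limit only in the group where the gene was higher, which favours the same direction. They were also read on the arrays that gave the calls, so they are no separate support. *Ephb1* and *Efnb3* have 1 probe set each, and the other probe sets of *Robo1*, *Sema6a*, *Sema6d*, *Sema7a*, *Slit1* and *Ntng2* were too dim to test.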

How the data were processed

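Total RNA of whole retinas was hybridized to Affymetrix Mouse Genome 430 2.0 arrays, 3 in each of 4 groups. The deposited values are linear intensity values, computed by the authors in GeneChip Operating Software 1.4. Neither a scaling target nor a normalization between arrays is given in the sources used here. Of 541212 values 826 were 0, and no 2 arrays were identical. 

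The 64 AFFX control probe sets were removed and the other 45037 were quantile-normalized over the 12 arrays. Limma 3.58.1 (lmFit, eBayes with a trend, in R 4.3.3) was fitted to log2(signal + 16) with the 4 groups in 1 model and no block, which gives each probe set 1 spread over both ages. Probe sets entered a test with a mean normalized signal of at least 50 in a compared group, and p values were adjusted (Benjamini-Hochberg, threshold 0.05) over all probe sets tested in a comparison, of which there were 4: *Otx2* CKO against control at P12 and at P1, the difference of these effects, and P12 against P1 in control. Gene symbols came from the platform annotation (34945 probe sets with 1 symbol, 932 with several and 9160 with none, and 34741 with an Entrez ID in the gene table). A gene's probe set was the one with the highest mean deposited signal. Levels were not compared between probe sets, and the number of arrays limits the precision. The fit was checked on simulated data with noise drawn independently for each array. That check does not cover deviations shared by same-numbered arrays.

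The members and gene lists were chosen with earlier results of these data known, and no list was tested as a set. Named genes were, by rule, the up to 12 largest rises and falls called at P12, the 6 largest of each with age, called differences between ages and the brightest member of each family. Same-numbered control and *Otx2* CKO arrays, numbered as experiments in the labels, deviated together from their group means (correlations 0.194, 0.144 and 0.268 at P1 and 0.829, 0.88 and 0.571 at P12), so the numbers were taken to pair the arrays of an age and fits with a replicate block were run. The block in the model of 12 arrays also joins same numbers across ages. There the correlations were −0.027, −0.047 and −0.026 in control and 0.631, 0.621 and 0.001 in *Otx2* CKO. Other alternatives were signals as deposited, median scaling, normalization within each age, other offsets and signal limits, no trend, each age alone, other probe set choices and each array left out. Promoter windows came from RefSeq (GRCm38.p6). Figures were drawn with matplotlib 3.10.9.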

Additional observations from a re-analysis of the deposited data

Results flagged for a closer look

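The effect of the *Otx2* CKO differed between P12 and P1 for 4 guidance genes, by limma's test of the difference itself. The log2 effect at P12 was larger than that at P1 by 1.64 for *Nrp2* (adjusted p = 0.0126), by 1.47 for *Ntn4* (adjusted p = 0.0208), by 1.32 for *Slit1* (adjusted p = 0.0408) and by 1.06 for *Robo1* (adjusted p = 0.0389). Each was higher in *Otx2* CKO in 3 of 3 same-numbered pairs at P12, as were all 13 guidance genes that rose. The same arrays gave the calls, so the pairs are no separate support. Over the alternatives the adjusted p ranged from 0.00121 to 0.0459 for *Nrp2*, from 0.000603 to 0.0987 for *Ntn4*, from 0.0036 to 0.161 for *Slit1* and from 0.00374 to 0.119 for *Robo1*. On the P12 arrays 7 of 7 microglia, 3 of 7 amacrine and 2 of 8 Muller glia markers rose and 8 of 8 rod and cone and 4 of 4 bipolar markers fell, and their part in these differences was not tested.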

How the results depend on the processing

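Of the genes called in a comparison, 782 of 904 values under an alternative kept their direction and their side of the threshold, 109 kept the direction only and 13 reversed. The 904 leave out alternatives in which a called gene fell under the signal limit and lost its test. *Plxna4* with age, for example, was tested in 9 of 12 settings and in 8 of the 12 fits without 1 array. Fits that removed an array of no compared group are counted among the 904. Beyond what the construction of a setting gives, the cause was not tested. At P12, 24 guidance genes were called higher with signals as deposited, 6 with each age alone and 26 with the replicate block within each age. The shares of all probe sets were 14.1%, 2.40% and 21.4%. Those called lower were 0, 1 and 7 in these fits, against 4.54%, 4.61% and 16.3% of all. There was 1 lower with median scaling and 7 with the replicate block in the model of 12 arrays, against 5.59% and 11.3% of all. Leaving out 1 array gave 10 to 19 higher and 1 to 6 lower, against 5.00% to 9.58% and 6.54% to 9.20% of all probe sets. There was 1 lower without control replicate 3 and 2 without *Otx2* CKO replicate 2 of P12. At P1 the replicate block within each age gave 1 lower, against 0.560% of all probe sets, and every other alternative 0. For age in control, 42 of 49 were higher and 0 lower as deposited, against 82.7% and 1.50% of all probe sets. With normalization within each age 44 of 50 were higher and 0 lower, against 91.1% and 1.19%. Both counts of higher genes are near the share over all probe sets. There were 4 higher with median scaling and with a signal limit of 100, against 12.2% and 21.0% of all. The fits without 1 array gave 4 to 10 higher and 5 to 13 lower, against 15.0% to 21.3% and 14.5% to 21.5% of all. They gave 4 higher without P12 control replicate 1 or 3 or P1 control replicate 2, and 5 lower without P1 control replicate 3. For the difference of effects, 8 were higher as deposited, 1 with median scaling and 2 with no signal filter, against 3.08%, 0.539% and 0.320% of all probe sets. There were 7 higher (and 2 lower) with the replicate block and 13 (and 4 lower) with the block within each age. Of all probe sets, 3.20% were higher and 4.56% lower with the former, and 9.92% and 8.34% with the latter. With the mean of a gene's probe sets 1 was lower, against 4.48% of all genes. Without 1 array 1 to 7 were higher and 0 to 1 lower, against 0.581% to 1.90% and 2.06% to 3.58% of all, with 7 and 1 without control replicate 2 of P12. The replicate block changed no call other than those given in the report. The values with age that reversed were, as deposited, *Efnb2* 0.077, *Ephb3* 0.72, *Plxnc1* 0.71, *Robo1* 0.73, *Sema4c* 0.22 and *Sema4d* 0.36, and with normalization within each age *Efnb2* 0.34, *Epha3* 0.084, *Ephb3* 0.94, *Plxnc1* 1.03, *Robo1* 0.98, *Sema4c* 0.46 and *Sema4d* 0.65, since both keep the brighter P12 arrays as they are.
Signals near background limit the 18 genes that were not tested, and 3 arrays a group limit the rest. Tests at each age carry the spread of the arrays of the other.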

Other observations

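Several receptor genes were lowest on the arrays numbered 2 in both genotypes at P12, while others, among them *Ephb1* and *Unc5b*, were highest there. *Unc5d*, a netrin receptor, had 94.8, 10.8 and 62.8 in P12 control and 103, 26.8 and 54.1 in P12 *Otx2* CKO for replicates 1, 2 and 3, and *Epha3* had 87.3, 17.4 and 58.2 and 99.7, 36.8 and 60.2. *Unc5c* had 126, 36.5 and 83.3 and 178, 82.2 and 129, and *Robo2* 30.6, 4.08 and 29.4 and 36.8, 7.71 and 9.79. At P1 the replicates of *Unc5c* were 51, 46.8 and 58.8 in control and 75.8, 56.1 and 67.7 in *Otx2* CKO. These genes were chosen after their values were seen, and the share of such genes among all probe sets was not counted. Over all probe sets with a mean signal of at least 50 in a group, the P12 arrays numbered 2 deviated together (correlation 0.88). What sets replicate 2 of P12 apart was not tested.

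Of the genes too dim to test, *Efna4*, an ephrin-A ligand, had 17.6, 11.3 and 11.8 in P12 control and 26.7, 43.9 and 28.5 in P12 *Otx2* CKO, without overlap, and was picked out after its values were seen.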
